A study of Drosophila melanogaster with 4 samples.

Results

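The genes described here are the non-coding genes whose RNA was lower in S2 cells after starvation in KRB and whose symbol is CR followed only by digits. They were selected on the measured values: a CR gene was a member if its summed raw reads in KRB were at most 0.8 times its summed raw reads in Schneider's medium. This rule chose 76 of the 217 CR genes in the table and 3.71% of its 2049 listed genes, and the other 141 CR genes had a ratio above 0.8. The S2 line is a Drosophila cell line of embryonic, hemocyte-like origin. The FED group was kept for 4 h in Schneider's medium, the growth medium of these cells, and the STARVATION group was kept for 4 h in Krebs Ringer Bicarbonate buffer (KRB), which holds no amino acids or serum and more sodium. There were 2 biological replicates per medium, 4 libraries of total RNA in all, with no genetic change in either group. The media differ in salt as well as in amino acids, and these cannot be told apart here.

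A CR symbol marks an annotated fly gene that makes no known protein, in contrast to CG symbols, which mark predicted protein-coding genes. The class is mixed. Long non-coding RNAs (lncRNAs) resemble mRNAs in length and processing, antisense RNAs (asRNAs) are transcribed from the strand opposite to another gene and can base-pair with its RNA, and pseudogenes are decayed copies of coding genes. Such RNAs can act on chromatin, on a neighbouring gene or as hosts of small RNAs, and many are short-lived because the nuclear exosome degrades them, but most CR genes have no assigned function.

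The read counts cover only the listed genes, and no listed gene had a raw ratio between 0.395 and 1.35, so the table is a selection of genes that changed. The libraries held 1108029 to 2801713 reads on these genes, and their full depth is unknown. Counts were scaled with the TMM method of edgeR, which takes most genes as unchanged, whereas this table holds changed genes. The paper reports a general fall of RNA levels in KRB. A normalized count is a count divided by the relative effective size of its library. It is relative to the listed genes and gives no amount of RNA per cell. In this unit the members summed to 20868 and 26569 in the 2 Schneider's replicates and to 12318 and 9977 in the 2 KRB replicates. Of the 10 hemocyte markers checked, eater and Sr-CI were listed, with up to 1375 raw reads. Both were lower in KRB, with log2 fold changes of -1.38 and standard errors of 0.33 and 0.53. The Schneider's replicates of Sr-CI lay apart, with a mean normalized count of 496 ± 340 (SD, n = 2). Of the markers of other cells, sls (muscle) was called higher at 1.32, PPO1 (crystal cell) had 1 and 1 raw reads in Schneider's medium and 5 and 6 in KRB and was not tested, and none of fat body, lamellocyte or neuron was listed. The part of a shift in cell makeup in the members' values was not tested. In bulk RNA a lower share of cells that make an RNA cannot be told apart from less RNA per cell.

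The annotation classed 67 of the 76 members as non-coding RNA and 9 as pseudogenes. By their current names 35 were asRNAs, 31 were lncRNAs and 1, CR43701, was a small non-coding RNA of 93 bases, so the name long non-coding RNA fits fewer than all members. They lay on every major chromosome arm, with 20 on 3R, 15 on 2L, 14 on 2R, 13 on X, 12 on 3L and 2 on the fourth chromosome. Of the members, 40 had a single exon, and the median exon length was 933 bases. The median of their mean raw counts was 43.1 reads per library, against 134 for the other listed genes on the lower side of the rule and 19.8 for the rising CR genes, and 15 members had a mean count under 10.

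Of the 76 members, 68 held enough reads for the edgeR quasi-likelihood fit over the whole table and 8 did not. A gene was called lower at a Benjamini-Hochberg adjusted p under 0.05. Of the 68, 63 were called lower, where 53.6% of all 1756 tested genes were, and the 5 not called were CR30009, CR43989, CR46139, CR43671 and CR44106. Both KRB libraries were below both Schneider's libraries for all 68 tested members and for all 76 members, where this held for 56.5% of tested genes. These counts describe the members and are no test of them, since the same ratio chose them. Among tested members the log2 fold change had a median of -1.20, with quartiles of -1.59 and -1.06 and a range from -3.49 to -0.87. Over all tested genes the median was -0.92. Over the 937 other tested genes on the lower side it was -1.18, close to the median of the members. No listed gene on the lower side had a raw ratio above 0.395. The same cut thus limits both groups, and the closeness of their medians is no finding about the members.

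**Figure D1:**
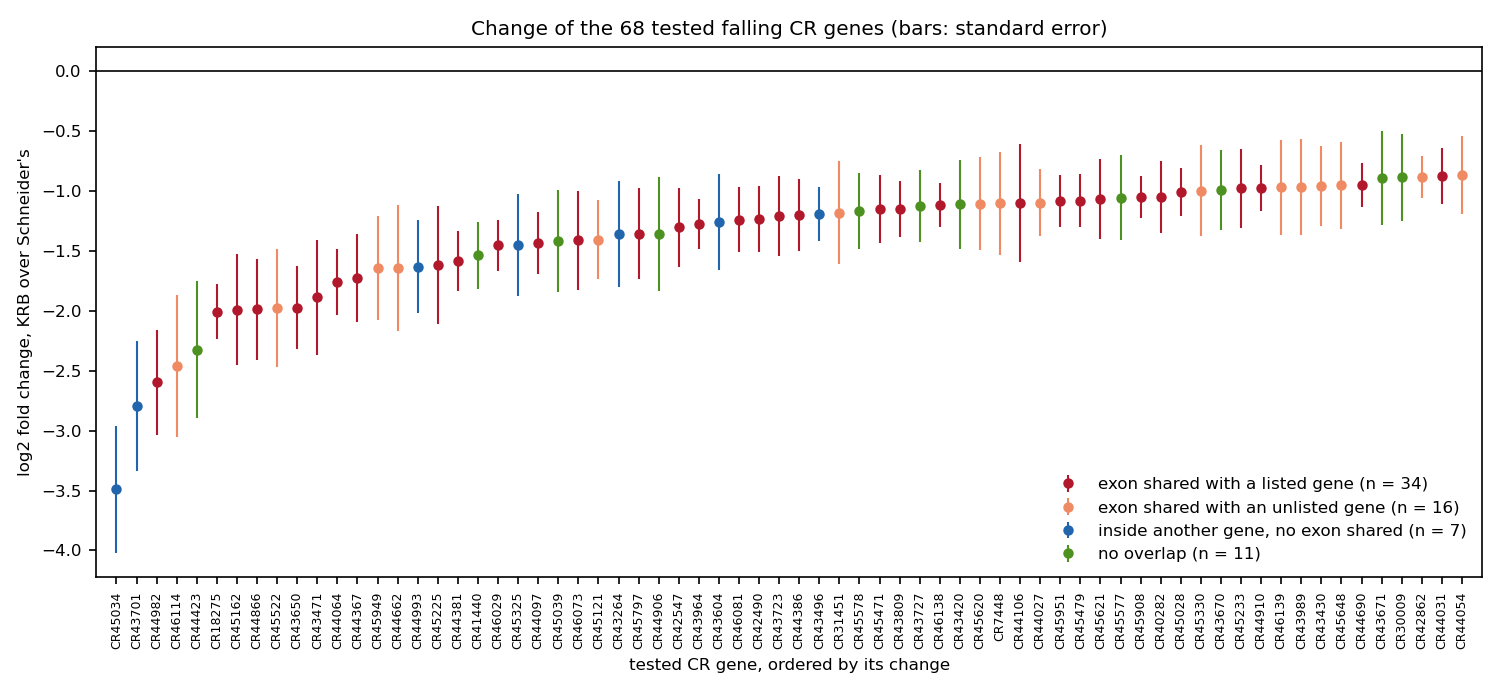
Log2 fold change in KRB relative to Schneider's medium (vertical axis) for the 68 tested falling CR genes, ordered by size along the horizontal axis, with bars of 1 standard error and colours for the overlap with other genes. The values run from -3.49 for CR45034 to -0.87 for CR44054, and the overlap classes are interleaved, except that the 7 members inside another gene lie at -1.19 or lower.

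**Figure D2:**
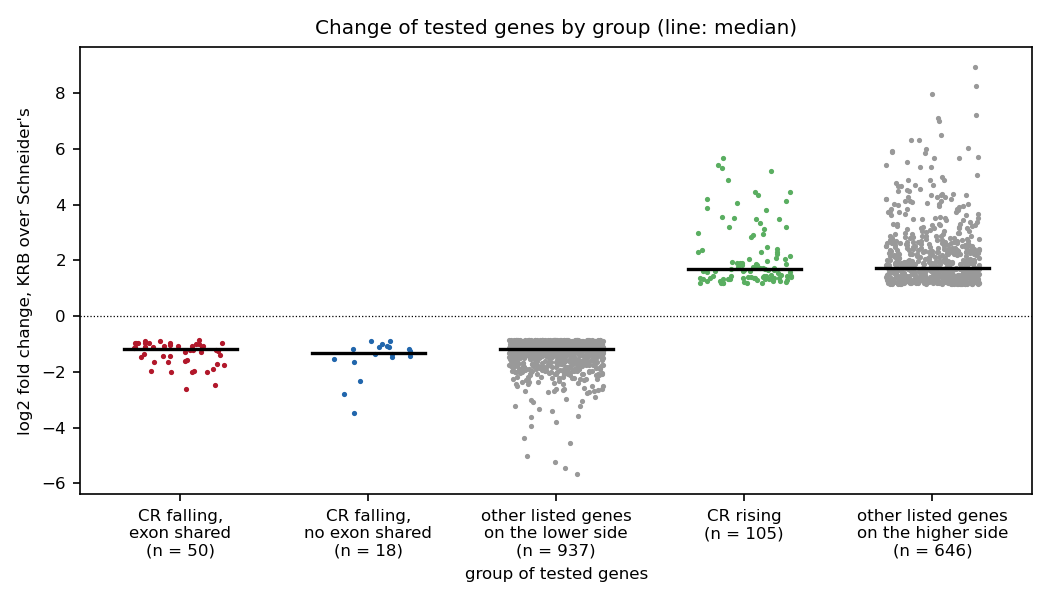
Log2 fold change in KRB relative to Schneider's medium (vertical axis) for each tested gene as a point, with a line at the median of each group on the horizontal axis, where exon shared means an exon base in common with another annotated gene. The falling CR genes lie within the range of the 937 other listed genes on the lower side, whose median was -1.18.

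At the edge of the rule, the members just inside it were CR43671, CR44054 and CR42862, with raw ratios of 0.370, 0.369 and 0.367. The CR genes just outside were CR43812, CR44498 and CR45018, with ratios from 1.55 upwards. No CR gene lay between these values, so membership was the same with a limit of 0.5 on the raw ratio.

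The most counted member was CR42862, an lncRNA gene of 3 exons on 3L (224106 to 230964, plus strand). Its normalized counts were 10348 and 10497 in Schneider's medium and 6247 and 5061 in KRB, a mean of 10422 ± 105 against 5654 ± 839 (SD, n = 2). The Schneider's replicates were nearly equal, and KRB held 54.2% of their mean. The log2 fold change was -0.88 with a standard error of 0.18. Of its 5485 exon bases, 246 (4.48%) overlap the same-strand coding gene CG33229, which was not listed.

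Per kilobase of exon the highest level among the members belonged to CR43264, a single-exon lncRNA gene of 318 bases on X (5831898 to 5832215, minus strand). It lies within the body of the coding gene CG15765, on the opposite strand, and shares no exon base with it. Its mean over both media was 12204 normalized counts per kb, against 1465 for CR42862 and 706 for the third in this order, CR43604. The normalized counts of CR43264 were 3157 and 8011 in Schneider's medium and 2603 and 1752 in KRB. Schneider's replicate 2 stood apart at 2.54 times replicate 1, and the lower Schneider's value was close to the higher KRB value. The log2 fold change was -1.36 with a standard error of 0.44, and it was -0.54 without Schneider's replicate 2 and -1.88 without Schneider's replicate 1.

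CR42862 and CR43264 together held 68.3% of the members' raw reads in Schneider's medium and 70.0% in KRB. The sums over the members are therefore mostly sums over these genes. Without them the members' normalized counts summed to 7364 and 8061 in Schneider's medium and to 3468 and 3164 in KRB.

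Position was not used by the rule. Of the 76 members, 63 (82.9%) overlapped the body of another annotated gene, against 68.6% of the matched rising CR genes and 56.5% of all matched listed genes. An exon base was shared with another gene by 54 members (71.1%), against 46 of 140 rising CR genes (32.9%), 44.1% of the other listed genes on the lower side and 37.0% of all matched listed genes. All 35 asRNAs, 15 of the lncRNAs and 4 of the pseudogenes shared exon bases. The overlapped gene was on the opposite strand for 58 members and on the same strand for 8, and some members had both. These shares are descriptions, and no test of the difference was made.

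The falling CR genes thus fell into 4 classes by position. In 34 an exon was shared with another listed gene, and their median log2 fold change was -1.24, with 33 of 34 called lower. In 20 an exon was shared only with genes that were not listed (14 of 16 tested called, median -1.10). Another 9 lay inside a gene without sharing an exon (7 of 7 called, median -1.45), and 13 overlapped no gene (9 of 11 called, median -1.12). Over all tested genes 53.6% were called lower, and the choice of members fixed the direction in every class. The members inside a gene include CR45034, with 1 and 1 raw reads in KRB, and CR43701, with 2 and 2. Differences between the classes were not tested.

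The library kit kept the strand of the RNA, but the sources used here do not say whether the counting used it. In the pairs that share most of their exons, the counts of the member and of the gene on the other strand were close and in some pairs nearly identical. The asRNA CR44031 on the fourth chromosome (1027863 to 1029359) shares 90.5% of its exon bases with CG11077, now named Mpv17 after a mitochondrial inner membrane protein. CR44031 had 305 and 910 raw reads in Schneider's medium and 177 and 255 in KRB, and CG11077 had 306, 909, 176 and 256. The largest difference in any library was 0.565%, and the log2 fold changes were both -0.88, with -0.58 for CR44031 without Schneider's replicate 2. Likewise CR43809 had 276, 495, 123 and 117 reads and its opposite-strand partner CG9257 had 274, 494, 123 and 118. These reads cannot be assigned to 1 strand from the table.

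In all, 7 pairs shared at least 75% of the exon bases of each gene. Besides the pairs above, these were CR46138 with CG1074, CR43964 with CG15093, CR44097 with CG6000, CR40282 with CR45471 and CR44367 with CG6553. The largest difference in any library between the genes of a pair ran from 0.565% to 17.0%, and their log2 fold changes differed by at most 0.10. The most counted of these members, CR43964 on 2R, had normalized counts of 550 and 755 in Schneider's medium and 265 and 275 in KRB, and CG15093 had 602 and 843 against 287 and 284. Both genes fell by similar amounts, with log2 fold changes of -1.28 (standard error 0.21) and -1.34 (standard error 0.21). CR44097 is the exception in strand, since it is annotated on the same strand as CG6000 and lies wholly within its exons.

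**Figure D3:**
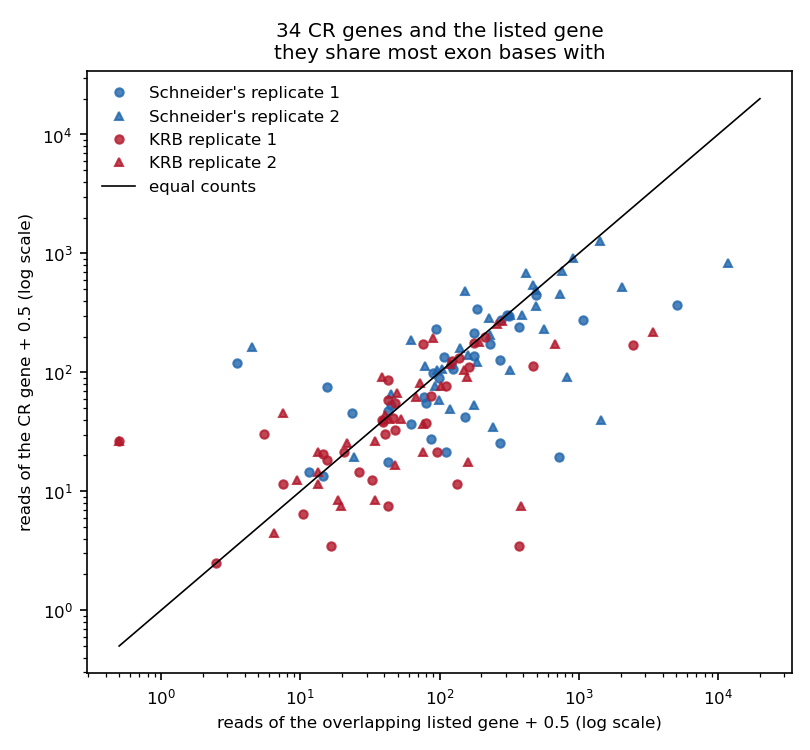
Raw reads + 0.5 of each of the 34 falling CR genes that share exon bases with a listed gene (vertical axis, log scale) against those of the listed gene with which it shares most exon bases (horizontal axis, log scale), with 1 point per library and a line at equal counts. Points of the pairs with near-complete overlap lie on the line, and those far below it are members that overlap a small stretch of a more counted gene, such as CR45908 with CG1943.

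Over the 34 members that share an exon with a listed gene there were 40 pairs with 40 partner genes, of which 34 code for protein. Of the partners, 38 also had a raw ratio of 0.8 or less, as did 52.3% of all listed genes. The partners CR44690, CR45479, CR45471 and CR40282 are themselves members, so the rule fixed their ratio. The pairs of CR44690 with CR45479 and of CR45471 with CR40282 are each counted from both sides. Each of the 34 members was compared with the listed gene that shares most of its exon bases, and 33 of these pairs had a fitted value for both genes. The median absolute difference of their log2 fold changes was 0.15, and 22 pairs lay within 0.25. An even spread of the partner's reads over its exons gives an expected number of reads for the shared bases. In 29 of the 40 pairs the reads of the member were within 2-fold of this number. The ratio of the member's reads to it had a median of 1.40 and ran from 0.78 to 153. Among the rising CR genes, 26 of 27 listed exon partners had a ratio above 0.8. Since the same reads may be counted for both genes, the partner's value is not an independent measurement.

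Several members overlap part of a more counted gene. CR45908 on 3R shares 16.2% of its exon bases with CG1943 and had normalized counts of 446 and 494 in Schneider's medium and 230 and 223 in KRB, whereas CG1943 had 6221 and 6975 against 3336 and 3482. CR44910 lies wholly within the exons of CG9246, now Noc2, a nucleolar factor of ribosome assembly. Its normalized counts were 337 and 309 against 152 and 176, and those of CG9246 were 1313 and 1216 against 633 and 686. KRB held 48.2% of the Schneider's mean for CR45908 and 50.7% for CR44910. CR46081 on 3R, wholly antisense to CG4338, had 296 and 272 in Schneider's medium and 149 and 92.6 in KRB. The log2 fold changes of these 3 members were -1.05, -0.98 and -1.24, and those of the partners were -0.95, -0.94 and -1.24.

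On X, the neighbouring asRNAs CR45479 and CR44690 lie over genes of cytochrome P450 enzymes, which oxidise lipids and foreign compounds. CR44690 covers 98.7% of the exon bases of Cyp4d2 and most of those of Cyp4ae1, which was not listed, and CR45479 covers 96.2% of those of Cyp4d14. CR44690 had normalized counts of 414 and 410 in Schneider's medium and 231 and 196 in KRB, and Cyp4d2 had 227 and 246 against 103 and 90.6. CR45479 had 162 and 170 against 74.4 and 82.4, and Cyp4d14 had 132 and 135 against 63.6 and 73.3. In each of these genes both KRB values lay below both Schneider's values, with log2 fold changes of -0.95, -1.29, -1.08 and -0.96 in the order given.

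CR46029 on 3R is a single-exon asRNA of 7622 bases that covers most of the exon bases of Gyc89Da and Gyc89Db, which code for atypical soluble guanylyl cyclases that sense oxygen. Its normalized counts were 282 and 289 in Schneider's medium and 116 and 92.6 in KRB, which gave a log2 fold change of -1.45 with a standard error of 0.21. Gyc89Da and Gyc89Db changed by -1.52 and -1.11. CR45951 on 3L shares 78.0% of its exon bases with park, the fly gene of the ubiquitin ligase parkin, and their log2 fold changes were -1.08 and -1.02.

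Among members whose mean count reached 50, the lowest log2 fold change was that of CR18275, a pseudogene on X (476857 to 479309). Its normalized counts were 263 and 325 in Schneider's medium and 78.5 and 68.2 in KRB, and the log2 fold change was -2.01 (standard error 0.23). It covers all exon bases of CG13373 on the opposite strand, which had 215 and 280 against 56.8 and 49.9 and a change of -2.22. The next was CR43650 on 2R, a lncRNA of 10400 bases that holds mir-8, a conserved microRNA gene of the miR-200 family known for its part in growth control. CR43650 had 147 and 96.4 normalized counts in Schneider's medium and 35.2 and 26.5 in KRB, which gave a log2 fold change of -1.97 with a standard error of 0.34. The annotated mir-8 hairpin held 3 and 4 raw reads in Schneider's medium and none in KRB, too few to give a fold, and this library type does not measure mature microRNAs.

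Another 6 members whose mean count reached 50 had the next lowest values, from -1.76 to -1.43: CR44064, CR44993, CR44381, CR41440, CR46029 and CR44097. CR44064 on 2L had normalized counts of 154 and 139 against 50.1 and 36.6, and its exon partner CG7420 changed by -1.85. CR44381 on X had 129 and 123 against 43.3 and 40.7, and its exon partner CG14054 changed by -1.31. In both of these members the KRB values lay well below those of Schneider's medium, and the Schneider's replicates were close. CR42490, a pseudogene on 2L, had 91.6 and 111 against 40.6 and 45.8, and KRB held 42.6% of the Schneider's mean. Reads of a pseudogene can also come from its parent gene where the sequences are alike, and these values are uncertain for that reason.

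Because shared reads cannot be assigned, the 22 members that share no exon base with another annotated gene are described by themselves. Of these, 18 were tested and 16 were called lower, and their median log2 fold change was -1.31, with a range from -3.49 to -0.89. Over the 1046 tested genes of the table that share no exon base, 46.4% were called lower and the median was -0.85. Those genes include rising ones and the members were chosen for falling, so the choice fixed the direction of this difference. A mean count of 50 was reached by 9 of the 22.

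Of these 9, 4 lie inside a larger gene. CR43604 on 2L (8485725 to 8485925) is a 201-base lncRNA within dachs, the gene of an atypical myosin of the Fat and Hippo pathway, and on the same strand. Its normalized counts were 205 and 194 in Schneider's medium and 119 and 49.9 in KRB. KRB replicate 2 held 0.419 times the value of replicate 1, and the log2 fold change of -1.26 (standard error 0.40) was -0.72 without KRB replicate 2 and -1.81 without KRB replicate 1. Reads of unspliced dachs RNA cannot be told apart from those of CR43604 here.

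CR43496 on X lies opposite to sov, a zinc finger gene of heterochromatin and the germline, and had 169 and 204 normalized counts against 83.9 and 79.4. Its replicates were close in both media, and the log2 fold change was -1.19 (standard error 0.23). CR44993 on 2L lies opposite to Df31, which codes for a chromatin decondensation factor, and had 76.9 and 133 against 27.1 and 40.7, a log2 fold change of -1.63 (standard error 0.39). The fourth is CR43264, described above. The genes around these 4 members, CG15765, dachs, sov and Df31, were not listed, and with the use of strand not stated the same limit holds for each of them.

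The other 5 overlap no annotated gene. CR45578 on 3R (10897985 to 10898581) is a single-exon lncRNA with normalized counts of 64.7 and 89.2 in Schneider's medium and 36.5 and 32.6 in KRB. Its neighbour CR45577 lies 803 bases away on the same strand and had 25.6 and 32.1 against 14.9 and 13.2. Their log2 fold changes were -1.17 and -1.06, in a direction that the choice of members fixes. CR45039 on 3R had 96.5 and 50.6 against 23.0 and 30.5, with the Schneider's replicates apart, and its log2 fold change of -1.42 (standard error 0.42) was -0.90 without Schneider's replicate 1.

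The other 3 are pseudogenes. CR43670 on 2L had 87.9 and 119 normalized counts in Schneider's medium and 64.9 and 40.7 in KRB, and its log2 fold change of -0.99 was -0.65 without KRB replicate 2. CR43727 on 3L had 62.3 and 67.8 against 32.5 and 27.5, a log2 fold change of -1.12. CR41440 on 2R had 103 and 89.8 against 31.1 and 34.6, a log2 fold change of -1.54. It lies 118 bases from CR45471, which in turn overlaps the pseudogene CR40282, so that 3 members sit within a stretch from 4730439 to 4732343 of 2R. CR45471 had 121 and 94.6 against 52.8 and 43.8, and CR40282 had 109 and 82.7 against 51.4 and 40.7.

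**Figure D4:**
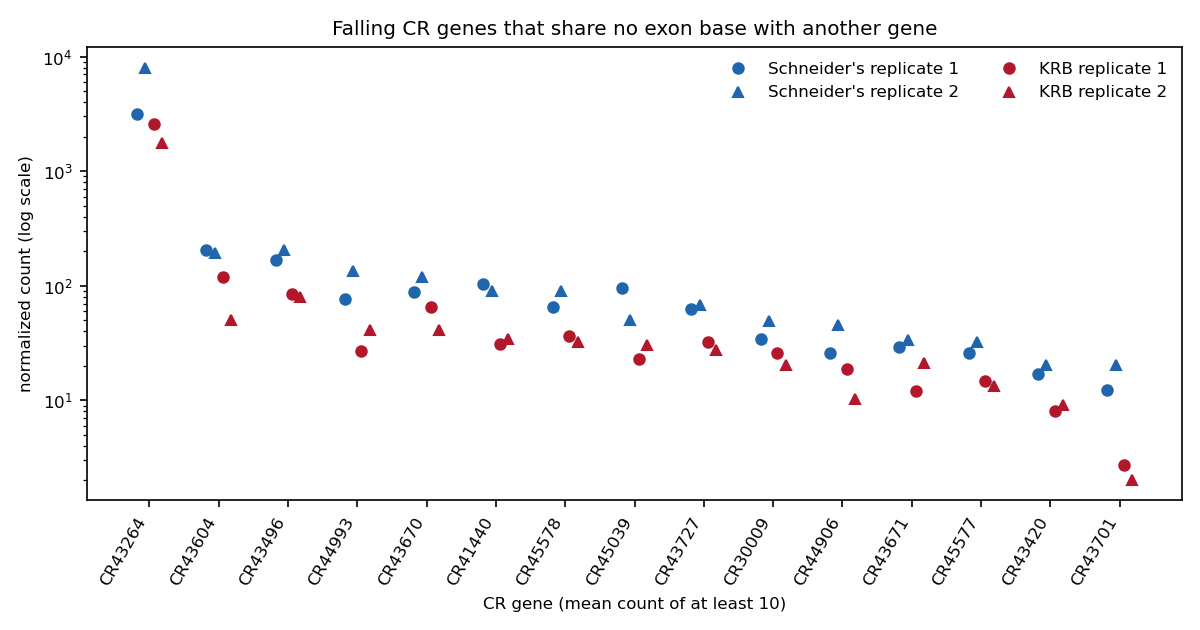
Normalized counts (vertical axis, log scale) of the 15 falling CR genes that share no exon base with another gene and have a mean count of at least 10, with 1 point per library and medium in colour. Both KRB points lie below both Schneider's points for each gene, with the narrowest gap for CR43264 on the left, whose Schneider's replicates were 3157 and 8011.

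Where the listed partner rose, the overlap was small. CR44097 shares 13 bases with Hsp68, a stress-induced chaperone gene, and had normalized counts of 139 and 181 in Schneider's medium and 55.5 and 63.1 in KRB. Hsp68 had 2136 and 3541 against 6260 and 7444, a log2 fold change of 1.27. CR45028 shares 93 bases, or 3.87% of the exon bases of CG7702, and had 212 and 213 against 104 and 107, whereas CG7702 had 61.1 and 63.6 against 158 and 239. CR43701 lies within stet, a gene of a rhomboid-type protease, and shares no exon with it. It had 10 and 34 raw reads in Schneider's medium and 2 and 2 in KRB, while stet rose with a log2 fold change of 1.51. In these 3 cases the member and the listed gene named here moved in opposite directions. CR44097 and CR45028 share more exon bases with other listed genes, which fell. CR44097 shares 558 bases with CG6000 (log2 fold change -1.38) and CR45028 shares 406 with CG31229 (-0.93).

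The largest difference from a falling partner was that of CR44866 on 2L, whose single exon of 324 bases shares 150 bases with CycE, the cyclin of entry into S phase. CR44866 had 19 and 39 raw reads in Schneider's medium and 3 and 7 in KRB, and its log2 fold change was -1.99 (standard error 0.42) against -0.96 (standard error 0.18) for CycE. The difference of 1.03 was not tested. CR43723 on 2R shares bases with Coop, a corepressor of Wnt targets, and changed by -1.21 against -0.89. CR46073 on 3R shares bases with Lerp, the lysosomal enzyme receptor, and changed by -1.41 (-0.91 without Schneider's replicate 2) against -1.26. CR45225 on 3R lies almost wholly within exons of Lgr3, a relaxin-type receptor, and changed by -1.62 (-1.01 without KRB replicate 2) against -1.31.

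A further 20 members share exon bases only with genes that were not listed, so the table gives no partner value for them. Among these, CR44027 lies on the fourth chromosome and overlaps dati, and had normalized counts of 91.6 and 117 in Schneider's medium and 44.6 and 52.9 in KRB. CR31451, now named lncRNA:mimi, holds most of the microRNA gene mir-9381 on 3R and had 103 and 167 against 82.5 and 38.7. The values of CR31451 were spread in both media, and its log2 fold change of -1.18 (standard error 0.43) was -0.78 without Schneider's replicate 2 and -0.69 without KRB replicate 2. CR45648 on 3R overlaps Irp-1A, an iron regulatory protein, and CR45121 on 3L overlaps Prps, an enzyme of nucleotide synthesis, and they changed by -0.95 and -1.41, with -0.42 for CR45648 without KRB replicate 1.

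In KRB 13 members held 3 reads or fewer in both libraries, and 2 of them, CR46056 and CR44442, held none. For these 13 members the fold, Schneider's over KRB, was taken as if each KRB library held 3 reads. It is a cautious value and no strict limit, since it leaves out the error of the few Schneider's reads. For CR44442, with 4 and 3 raw reads in Schneider's medium, it was 0.94. The fold of CR43701 was 4.56, and 3.43 without Schneider's replicate 2. The lncRNA CR45034 on 3L lies inside the gene of a succinyl-CoA synthetase subunit (Scsalpha1), on the opposite strand. It had 11 and 25 raw reads in Schneider's medium and 1 and 1 in KRB, and its fold was 3.98. The folds of CR46114, CR45221 and CR44662 were 3.54, 3.32 and 2.72. For CR45221, with 14 and 11 raw reads in Schneider's medium, the fold without Schneider's replicate 1 was 1.84. The fold was also smaller for CR46114 without Schneider's replicate 2 and for CR44662 without Schneider's replicate 1. These RNAs were close to the limit of detection in KRB, and the fitted log2 fold change of -3.49 for CR45034, the lowest of all members, rests on 2 KRB reads.

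Other non-coding genes moved in both directions. Of 20 named non-coding RNA genes 5 were listed, and the snoRNA host genes Uhg4 and Uhg5 were called lower (log2 fold changes of -0.95 and -0.87), while Hsromega, a heat-inducible nuclear RNA, Uhg7 and the dosage compensation RNA roX1 were called higher, with Hsromega at 2.37 and Uhg7 at 1.19. Of 38 genes of RNA decay 8 were listed and 6 were called lower, where 53.6% of all tested genes were. These were Mtr3, Rrp40, Rrp42, Rrp45, Rrp46 and Ski6, which are known as subunits of the RNA exosome, and their log2 fold changes ran from -1.66 for Rrp46 to -0.87 for Rrp45. Smg5 and Smg6, factors of nonsense-mediated decay, were called higher, at 1.85 and 1.31. None of 33 genes of RNA polymerase II and Integrator was listed. The part of these changes in the levels of the CR genes was not tested.

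The size of the change depended on how the libraries were scaled. Scaling moved the median of all tested genes by -0.97 (total counts) to 0.74 (DESeq2 and relative log expression). The members moved with it, to medians of -2.17 and -0.46, and stayed 0.28 below the median of all tested genes. This offset says nothing about the members, since they were chosen for falling and all tested genes include the rising ones. With the main settings the other tested genes on the lower side had a median of -1.18, against -1.20 for the members. With DESeq2 3 members were called lower and with relative log expression 10, where 5.07% and 10.1% of all tested genes were, and without KRB replicate 1 or 2 the count was 31 or 32 of 68, where 31.3% and 37.1% of all tested genes were called lower. No member changed sign under any of these settings.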

How the data were processed

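The RNA-seq libraries came from S2 cells, with ribosomal RNA removed and 2 biological replicates in each medium. The authors mapped single-end reads to Dm6 with STAR 2.4.0.1, counted reads over transcripts by a script in Python 2.7, compared media with edgeR 3.24.3 and deposited raw read counts per gene without normalization. The use of strand in counting is not given in the sources used here. The deposited log2 fold change and p-value of the authors' own comparison were not used. Symbols were matched to the BDGP6 annotation, release 115, of the same assembly (2036 matched, 13 not), and overlaps of gene bodies and exons were taken from it.

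Counts were fitted over the whole table with edgeR 4.0.16 in R 4.3.3 (filterByExpr, TMM, the quasi-likelihood F-test, two-sided, with medium as the single term, Benjamini-Hochberg adjustment over 1756 tested genes). The standard error is the absolute log2 fold change divided by the square root of F. Alternatives were the edgeR exact test, DESeq2 1.42.0, total-count, upper-quartile and relative log expression scaling, other filters and thresholds, a replicate block and leaving out each library. Scripts were tested on simulated counts. The depth, 1108029 to 2801713 reads on listed genes per library, limits members with few reads.

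The members and lists were chosen with earlier results of these data known. Named members were the 8 with the highest level per kb of exon (mean count of at least 10), the 8 with the lowest log2 fold change (mean count of at least 50), the 3 on either side of the ratio limit, the 8 most counted that overlap a listed gene, the 4 closest pairs of members within 10 kb, the 3 most counted pseudogenes and the 5 most counted in Schneider's medium among those with 3 reads or fewer in both KRB libraries. Others were named after their values were seen. No sequence is shown. Figures were drawn with Python 3.11.15 and matplotlib 3.10.9.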

Additional observations from a re-analysis of the deposited data

How the results depend on the processing

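The number of members was 76 with a raw ratio limit of 0.5 and with normalized counts in place of raw counts. The count of members called lower was 63 with the edgeR quasi-likelihood test and the exact test, 68 with total-count scaling, 32 with upper-quartile factors, 10 with relative log expression factors, 3 with DESeq2, 74 of 76 without a filter, 59 of 61 with a mean count of at least 10, 34 at an adjusted p under 0.01 and 53 where the log2 fold change also had to reach 1 in size. Over all tested genes the share called lower was 53.6% with the main settings, 53.8% with the exact test and 57.2% with total counts. It was 31.2% with upper-quartile factors, 10.1% with relative log expression and 5.07% by DESeq2. Without a filter it was 49.7%, and with a mean count of at least 10 it was 53.4%. For the adjusted p under 0.01 and the limit on the log2 fold change no such share was computed. Leaving out 1 library gave 31 to 56 members, with 56 and 46 without Schneider's replicates 1 and 2 and 31 and 32 without KRB replicates 1 and 2, where 51.1%, 42.5%, 31.3% and 37.1% of all tested genes were called lower. The median log2 fold change was -2.17 with total counts, -0.74 with upper-quartile factors, -0.46 under both relative log expression and DESeq2 and -1.45 without a filter, where 76 members entered, and -1.29 to -1.08 with 1 library left out. Only the members that share no exon base, an alternative added after the data were seen, gave 16 of 18 called and a median of -1.31. Overlap on the same strand alone held for 8 members, against 63 with any overlap. A replicate block gave 68 members called lower and 1004 of 1756 genes. The replicate numbers share only a number in the labels, and the deviations of same-numbered libraries correlated with r = 0.298 across genes, which are not independent replicates. No member changed direction. The folds taken at 3 KRB reads without each Schneider's library were added after the data were seen. Leaving out 1 library moved the log2 fold change of 18 members by over 1.5 times. With 2 libraries per medium the spread rests on few values. The p-values set the difference between the media against the variation between these libraries only.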
